A study of Mus musculus with 108 samples.

Results

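The 39 genes described here encode the classical guidance ligands and receptors of the ephrin, Slit and netrin systems. They were taken by symbol from the 23337 genes of a mouse hippocampus expression table, with earlier results of these data known. They comprise 9 EphA and 5 EphB receptors, 5 ephrin-A and 3 ephrin-B ligands, 3 Slits, 4 Robo receptors, 4 netrins (Ntn1, Ntn3, Ntn4 and Ntn5), 4 UNC5 receptors, and the paired receptors Dcc and Neo1. Expression was measured by RNA sequencing in whole hippocampal tissue on postnatal days 0, 7, 14, 21 and 28 (P0 to P28, 3 independent replicates per age) and in 93 single neurons of postnatal weeks 3 to 4. From CA1 came 19 interneurons labelled cholecystokinin (CCK, regular-spiking), 14 labelled parvalbumin (PV, fast-spiking) and 25 pyramidal cells. From the subiculum, which receives CA1 output, came 35 pyramidal cells, of which 21 fired in bursts and 14 regularly. No genotype, strain or treatment is given for any group. The SMARTer cDNA kit was of version 3 for CA1 cells and of version 4 for the subiculum and for tissue.

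Ephrins are cell-surface ligands that signal to Eph receptor tyrosine kinases on neighbouring cells and can signal back into the cell that bears them, and both directions steer axons and shape dendritic spines. Slits are secreted proteins that repel growing axons and migrating neurons through Robo receptors. Netrins are laminin-related proteins that attract axons through Dcc and repel them when UNC5 receptors take part, while neogenin (Neo1), the close relative of Dcc, also binds repulsive guidance molecules. In the hippocampus these systems are known for sorting afferent fibres into layers and, later, for tuning excitatory synapses.

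Gene reads numbered 2341677 to 13262818 per tissue library and 30025 to 11694081 per cell. All values are counts scaled to CPM, reads per 1000000 gene reads, in tissue after TMM scaling of library sizes. In the tissue all 8 immature-neuron, all 6 proliferation and all 6 Cajal-Retzius cell markers fell between P0 and P28, and all 8 myelin, all 6 microglia and all 3 GABAergic-neuron markers rose. Of 5 choroid plexus markers 4 rose, and their sum varied widely between libraries of 1 age, from 2.61 to 5.48 CPM at P0, 39.9 to 1034 CPM at P21 and 73.1 to 937 CPM at P28. The summed level of the immature-neuron markers went from 3808 to 4398 CPM in the 3 P0 libraries to 245.6 to 291 CPM in the 3 P28 libraries, and that of the myelin markers from 85.5 to 103.1 CPM to 9092 to 12016 CPM. None of these markers was at 0 in either age, and their part in the results below was not tested. In bulk tissue, fewer cells of a type and less RNA per cell cannot be told apart.

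RefSeq promoter sequences (assembly GRCm38.p6) were found for 34 of the 39 genes, and the 250 bases before the transcription start had a median GC content of 65.2%, against 52.0% over 27025 genes. The GC box (GGGCGG, either strand) was found in 24 of the 34, and in 32.9% of all promoters. The CCAAT box was found in 13 (34.5% of all), the TATA box (TATAAA) in 2 (12.97%), the cAMP-response element (TGACGTCA) in 1 (1.62%) and the E-box CAGCTG in 5 (12.8%). The 4 promoters printed here, 5′ to 3′ on the gene's strand, belong to 2 genes with large rises in the tissue (Epha10 and Unc5a) and 2 with large falls (Neo1 and Efna4), and capitals mark these motifs, with overlapping matches run together and a minus-strand match printed as its reverse complement.
Epha10, chr4:124881535-124881784, plus strand: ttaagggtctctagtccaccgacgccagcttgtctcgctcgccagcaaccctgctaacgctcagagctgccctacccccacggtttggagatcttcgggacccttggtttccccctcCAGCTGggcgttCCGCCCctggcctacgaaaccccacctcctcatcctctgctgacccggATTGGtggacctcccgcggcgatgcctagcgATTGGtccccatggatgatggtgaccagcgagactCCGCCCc
Unc5a, chr13:54949161-54949410, plus strand: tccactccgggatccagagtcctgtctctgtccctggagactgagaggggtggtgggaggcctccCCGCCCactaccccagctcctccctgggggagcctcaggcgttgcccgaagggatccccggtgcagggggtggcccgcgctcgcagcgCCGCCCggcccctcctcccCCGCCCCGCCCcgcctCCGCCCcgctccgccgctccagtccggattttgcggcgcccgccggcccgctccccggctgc
Neo1, chr9:59036442-59036691, minus strand: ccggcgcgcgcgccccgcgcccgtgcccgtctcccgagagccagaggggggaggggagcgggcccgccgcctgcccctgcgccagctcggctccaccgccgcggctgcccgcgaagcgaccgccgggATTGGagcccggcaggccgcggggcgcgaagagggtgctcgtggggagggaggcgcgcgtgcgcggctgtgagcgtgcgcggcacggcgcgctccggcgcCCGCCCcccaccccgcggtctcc
Efna4, chr3:89338029-89338278, minus strand: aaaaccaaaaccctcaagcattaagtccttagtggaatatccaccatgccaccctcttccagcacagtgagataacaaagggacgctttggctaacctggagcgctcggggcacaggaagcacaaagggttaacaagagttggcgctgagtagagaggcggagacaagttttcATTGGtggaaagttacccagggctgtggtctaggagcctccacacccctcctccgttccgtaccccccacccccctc
Epha10 held GC boxes, CCAAT boxes and the E-box, Unc5a held GC boxes, Neo1 both a GC box and a CCAAT box, and Efna4 a CCAAT box. A match describes these letters and is not evidence of a bound factor.

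The comparison of P28 with P0 asked how guidance gene expression changes as the hippocampus matures after birth. Of the 39 genes, 12 rose (32.9% of all 14737 genes tested rose), 17 fell (31.3% of all fell; 64.2% changed in either direction) and 10 were not called. With library totals in place of TMM factors, all-gene calls were 4082 higher and 5654 lower, against 4846 and 4619 with TMM, and 10 members were higher and 20 lower. All 39 passed the filter on low counts. The median log2 fold change of the 39 was −0.25, beside 0.00 over all genes, and the median absolute change 0.74 beside 0.62. The 3 P0 and the 3 P28 libraries did not overlap for 29 of the 39 (68.6% of all genes tested). None of the 8 ephrins rose and 6 fell, whereas 3 of the 4 UNC5 receptors rose. Among Eph receptors 4 of 14 rose and 6 fell, and both Dcc and Neo1 fell. In a test across all 5 ages, 36 of the 39 differed (76.4% of all genes), and Efna3, Ntn1 and Epha2 did not pass. Changes were tested with edgeR's quasi-likelihood test and p values adjusted by the Benjamini-Hochberg method over all genes tested.

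**Figure D1:**
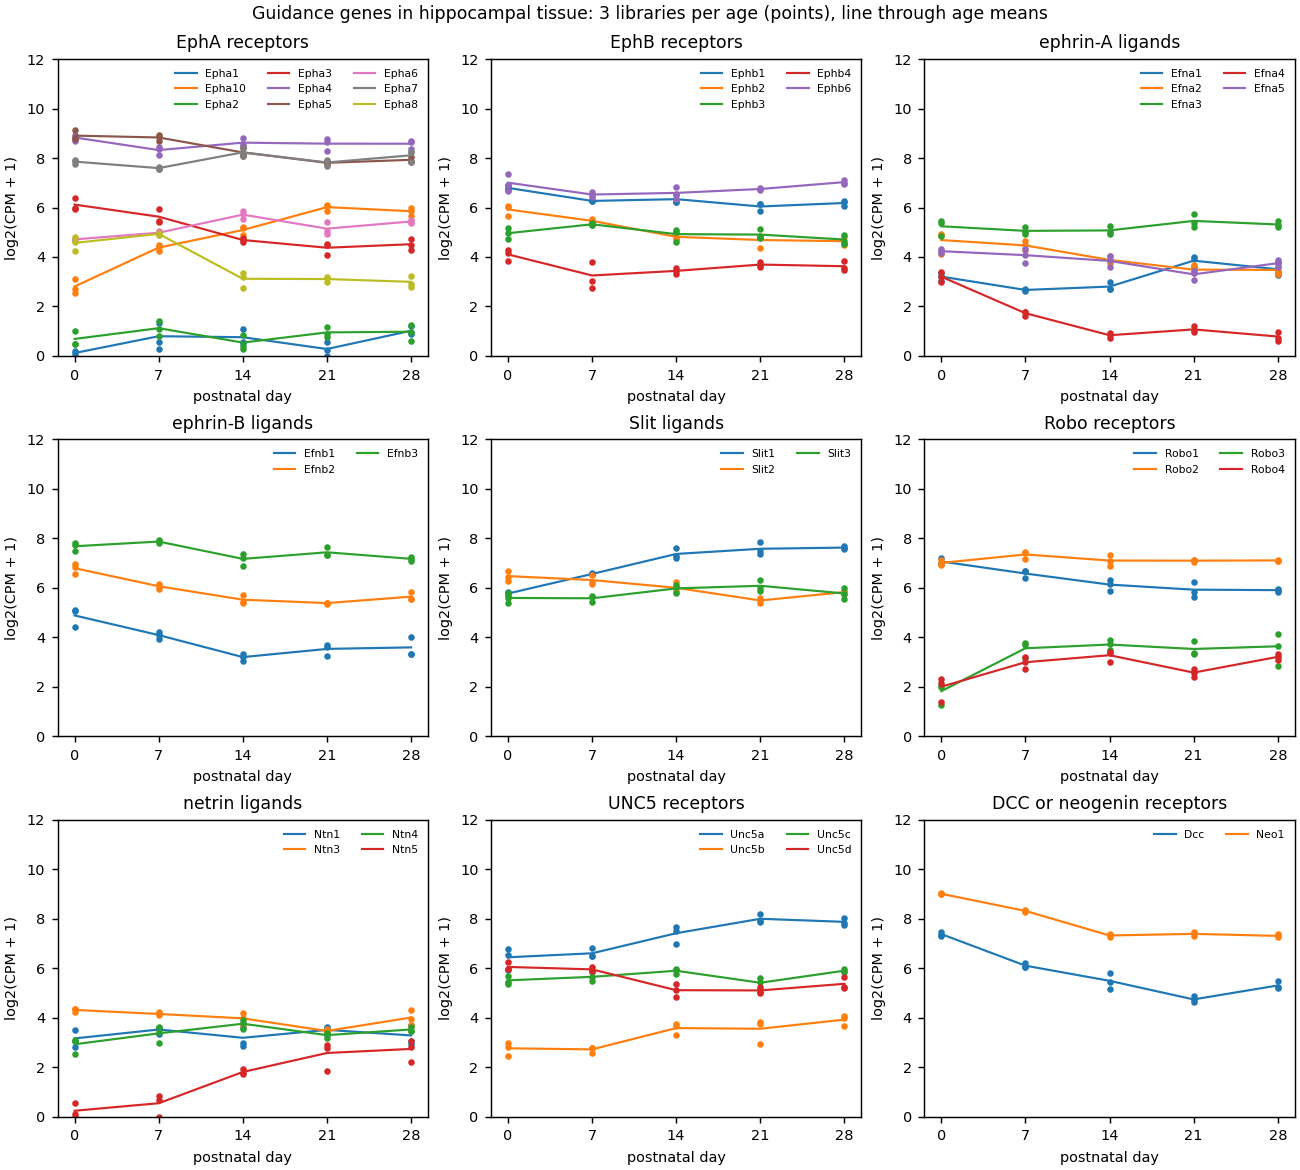
Level of each of the 39 guidance genes in hippocampal tissue, as log2(CPM + 1) on the vertical axis, against postnatal day. Points are single libraries (3 per age) and lines join the means of each age; each panel holds 1 family. In the age means, Neo1 and Efna4 fall within the first 2 weeks and Dcc until P21. Epha10 and Unc5a climb to P21 and Slit1 to P28, though Slit1 was not called between P14 and P21.

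Ephrin-A ligands are tethered to the membrane by a lipid anchor and bind mainly EphA receptors. The 3 neighbouring genes Efna1, Efna3 and Efna4 lie in that order on chromosome 3 of GRCm38 (mm10), between 89271733 and 89338028, and did not move together. Efna4 (chromosome 3, 89333390 to 89338028, minus strand) was at 8.06, 6.97 and 9.61 CPM at P0, 2.05, 2.44 and 2.46 at P7, 0.648, 0.887 and 0.823 at P14, 1.31, 1.07 and 0.933 at P21, and 0.970, 0.661 and 0.539 at P28. It fell steeply (log2 fold change −3.55, SE 0.31, adjusted p = 6e-09), the largest fall among the 39, and no library of P7 or later reached any P0 library. Efna1, an ephrin also known from blood vessels, was at 8.24 ± 1.11 CPM at P0 and 10.3 ± 2.24 CPM at P28 (SD, n = 3) and was not called (log2 fold change 0.37, SE 0.19, adjusted p = 0.0993), but it rose by 1.16 on the log2 scale between P14 and P21 (adjusted p = 0.000363). Efna3, a ligand of Epha4 also known from astrocytes, had 36.8 ± 8.19 and 38.8 ± 3.78 CPM at P0 and P28 (adjusted p = 0.878). An antisense gene overlaps 10.5% of the exon bases of Efna4 and another 14.13% of those of Efna3, and whether reads kept their strand is not given in the sources used here.

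Efna2 (chromosome 10, 80179482 to 80190010, plus strand), a ligand of several EphA receptors, was at 16.5, 29.3 and 28.35 CPM at P0, 18.2, 21.14 and 24.1 at P7, 15.3, 12.6 and 13.3 at P14, 11.9, 9.15 and 9.64 at P21, and 9.84, 11.6 and 9.01 at P28. The P28 libraries all lay below the P0 libraries (log2 fold change −1.34, SE 0.19, adjusted p = 3.77e-06). Efna5, which guides topographic projections, went from 17.8 ± 1.09 to 12.5 ± 1.27 CPM and fell by 0.50 on the log2 scale (adjusted p = 0.0163). The call on Efna5 was lost without P28 replicate 3 (−0.43 with adjusted p = 0.068).

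Ephrin-B ligands span the membrane and bind mainly EphB receptors, and all 3 fell. Efnb2 (chromosome 8, 8617434 to 8661242, minus strand), also a marker of arterial endothelium, was at 93.1, 113.4 and 124.2 CPM at P0, 67.4, 69.5 and 61.2 at P7, 51.5, 40.8 and 42.6 at P14, 40.2, 41.0 and 41.2 at P21, and 46.1, 55.6 and 45.5 at P28. Each P0 library exceeded every later one, and the gene fell (log2 fold change −1.18, SE 0.12, adjusted p = 2.78e-08). Efnb1 (chromosome X, 99136130 to 99148991, plus strand), an X-linked ligand, was at 20.2, 33.2 and 32.5 CPM at P0, 16.1, 14.4 and 17.6 at P7, 8.99, 7.32 and 8.31 at P14, 11.1, 12.1 and 8.55 at P21, and 9.14, 15.1 and 9.01 at P28. It reached its lowest mean at P14 and lay below all P0 libraries at P28 (log2 fold change −1.40, SE 0.21, adjusted p = 7.61e-06). Efnb3 (chromosome 11, 69554092 to 69560205, minus strand), found at postsynaptic sites of excitatory synapses, was at 178, 213.7 and 222 CPM at P0, 225.3, 234 and 241 at P7, 148, 117.8 and 164 at P14, 159, 201.3 and 158 at P21, and 150.2, 144 and 136.8 at P28. Its mean over all ages, 56.4 CPM per kilobase of exon, was the highest of the 39 genes. It stayed high through P7 and then fell (log2 fold change −0.52, SE 0.12, adjusted p = 0.000624).

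The EphA receptors divided into genes that rose, fell and held their level. Epha10 (chromosome 4, 124880899 to 124917800, plus strand), whose kinase domain is predicted to be inactive, was at 7.66, 5.57 and 4.81 CPM at P0, 19.99, 21.34 and 18.1 at P7, 34.8, 28.6 and 35.8 at P14, 68.4, 66.5 and 56.3 at P21, and 49.3, 57.7 and 63.0 at P28. Levels climbed at each step up to P21, and every later library exceeded all P0 libraries (log2 fold change 3.36, SE 0.16, adjusted p = 7.8e-13). Its promoter is the GC-rich sequence with 2 CCAAT-box matches printed above, at a RefSeq start that lies inside the longer GENCODE gene span. Epha6 rose from 25.2 ± 1.03 to 42.3 ± 2.005 CPM (log2 fold change 0.74, SE 0.13, adjusted p = 5.44e-05) with its highest mean, 51.4 ± 5.80 CPM, at P14.

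Epha3 (chromosome 16, 63543534 to 63864175, minus strand), a receptor for ephrin-A5 and ephrin-A2, was at 82.6, 60.4 and 62.5 CPM at P0, 42.5, 60.8 and 42.2 at P7, 24.6, 26.4 and 23.2 at P14, 22.001, 16.1 and 21.14 at P21, and 21.195, 18.7 and 25.8 at P28. All libraries from P14 on lay below all of P0 and P7 (log2 fold change −1.61, SE 0.17, adjusted p = 5.62e-08 for P28 against P0). Epha8 (chromosome 4, 136929419 to 136956816, minus strand), a receptor of the developing midbrain and cortex, was at 17.7, 27.3 and 23.1 CPM at P0, 29.7, 28.5 and 30.6 at P7, 9.16, 5.77 and 8.15 at P14, 8.26, 6.84 and 7.77 at P21, and 5.96, 8.43 and 6.55 at P28. The fall (log2 fold change −1.73, SE 0.19, adjusted p = 1.08e-07) took place between P7 and P14, where the log2 fold change was −1.90 (adjusted p = 1.06e-07), and the 3 later ages overlapped. Epha5, a receptor for ephrin-A5 in forebrain neurons, went from 479 ± 66.8 to 242.7 ± 17.9 CPM (log2 fold change −0.97, SE 0.10, adjusted p = 9.02e-08).

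Epha4 (chromosome 1, 77367185 to 77515088, minus strand), which binds ephrins of both classes and acts at dendritic spines, was at 492, 456 and 415 CPM at P0, 281, 343 and 332 at P7, 359, 443 and 376 at P14, 312, 436 and 398 at P21, and 403, 329.7 and 411 at P28. The P0 and P28 libraries did not overlap, yet the difference was not called (log2 fold change −0.25, SE 0.12, adjusted p = 0.0788). With library totals in place of TMM factors it was called lower (−0.40 with adjusted p = 0.00507), as it was with the 6 libraries of both ages alone (−0.25 with adjusted p = 0.0455). Epha7 (chromosome 4, 28813131 to 28967499, plus strand), which limits dendrite growth in cortical neurons, was at 244.7, 233 and 213.7 CPM at P0, 189, 199 and 188 at P7, 272, 335 and 292 at P14, 202.3, 239.2 and 234 at P21, and 300.3, 225.4 and 301 at P28. Its rise was small (log2 fold change 0.26, SE 0.11, adjusted p = 0.0435) and was not called under 8 of the alternatives, among them library totals (0.11 with adjusted p = 0.349), the replicate block (0.26 with adjusted p = 0.056) and leaving out P0 replicate 2 (adjusted p = 0.0916), P0 replicate 3 (adjusted p = 0.187), P28 replicate 1 (adjusted p = 0.169) or P28 replicate 3 (adjusted p = 0.204). Epha1 and Epha2, receptors best known from epithelia, stayed near the detection limit. Epha1 was called higher at P28 (adjusted p = 0.00385) from 3 reads at P0 and 34 at P28, a ratio of 8.05 in CPM pooled over each age by library totals without TMM (counting interval 2.53 to 41.0). It shares 6.01% of its exon bases with Zyx on the opposite strand. Epha2 had 0.611 ± 0.356 and 0.971 ± 0.433 CPM at these ages (adjusted p = 0.409).

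None of the 5 EphB receptors rose. Ephb2 (chromosome 4, 136647539 to 136835988, minus strand), a receptor that clusters NMDA receptors at synapses, was at 49.2, 64.3 and 65.4 CPM at P0, 40.5, 42.9 and 45.8 at P7, 25.8, 25.5 and 30.2 at P14, 19.8, 27.99 and 26.4 at P21, and 22.7, 21.6 and 27.4 at P28. Each P28 library lay below every P0 library (log2 fold change −1.34, SE 0.14, adjusted p = 8.67e-08). Ephb1, which sorts retinal axons at the optic chiasm, went from 109.9 ± 7.77 to 71.7 ± 4.86 CPM (log2 fold change −0.63, SE 0.10, adjusted p = 2.52e-05). Ephb4, the venous partner of ephrin-B2, went from 16.2 ± 2.65 to 11.3 ± 1.65 CPM (log2 fold change −0.54, SE 0.21, adjusted p = 0.0331). The call on Ephb4 was lost without P0 replicate 2 (−0.45 with adjusted p = 0.127), P0 replicate 3 (−0.54 with adjusted p = 0.0742), P28 replicate 1 (−0.48 with adjusted p = 0.0974) or P28 replicate 3 (−0.50 with adjusted p = 0.09). Ephb6 (chromosome 6, 41605482 to 41620509, plus strand), which lacks kinase activity, was at 118.1, 100.6 and 163 CPM at P0, 90.99, 85.6 and 96.7 at P7, 93.6, 80.3 and 112.3 at P14, 109.9, 107.6 and 102.1 at P21, and 126.8, 137.5 and 124.05 at P28. Its P0 and P28 libraries overlapped, and the sign of the difference was not stable (log2 fold change 0.01, SE 0.14, adjusted p = 0.938, and −0.14 with library totals). Ephb3, which acts with Ephb2 in forebrain commissures, had 30.2 ± 4.77 and 25.1 ± 3.20 CPM (log2 fold change −0.29, SE 0.15, adjusted p = 0.0904). It was called lower with library totals (−0.44 with adjusted p = 0.0158), without P0 replicate 1 (−0.37 with adjusted p = 0.0427) and without P28 replicate 3 (−0.41 with adjusted p = 0.0425).

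**Figure D2:**
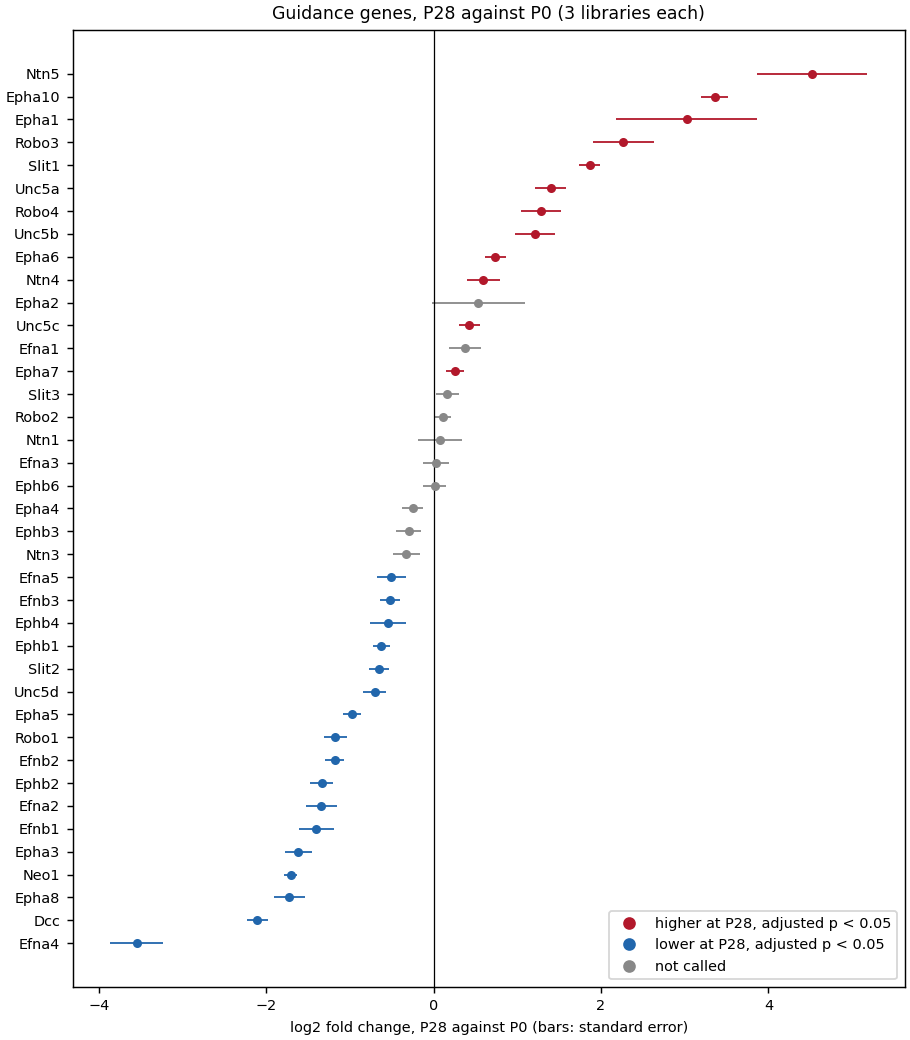
Log2 fold change of each guidance gene in tissue between P28 and P0 (horizontal axis; bars, standard error; 3 libraries per age), ordered by size. The 12 red points are genes called higher at P28, the 17 blue points genes called lower and the 10 grey points were not called; Ntn5, Epha10 and Epha1 lie farthest right and Efna4 farthest left.

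The 3 Slits went 3 ways. Slit1 (chromosome 19, 41600257 to 41743665, minus strand), a repellent expressed by neurons, was at 49.99, 55.7 and 55.2 CPM at P0, 93.5, 94.9 and 92.3 at P7, 155, 145 and 194 at P14, 166, 228.8 and 177 at P21, and 189, 195 and 206.6 at P28. The libraries of P0, P7 and P14 followed one another without overlap, and P28 was far above P0 (log2 fold change 1.86, SE 0.12, adjusted p = 7.21e-11). Slit2, a repellent of forebrain axon tracts, went from 88.1 ± 11.9 to 55.9 ± 2.47 CPM (log2 fold change −0.65, SE 0.12, adjusted p = 0.000117). Slit3, a Robo ligand also made outside the nervous system, had 47.3 ± 6.83 CPM at P0 and 53.7 ± 7.91 CPM at P28 and was not called (log2 fold change 0.16, SE 0.14, adjusted p = 0.308).

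Of the Robo receptors, Robo1 (chromosome 16, 72308306 to 73046095, plus strand), which mediates Slit repulsion in axons, was at 125.8, 146 and 127.6 CPM at P0, 101.2, 100.6 and 82.4 at P7, 57.9, 79.8 and 70.0 at P14, 49.0, 75.1 and 55.6 at P21, and 56.1, 60.0 and 61.3 at P28. Every library from P14 on was below the P0 libraries (log2 fold change −1.17, SE 0.14, adjusted p = 4.08e-07). Robo3 (chromosome 9, 37415669 to 37433246, minus strand), which lets commissural axons cross the midline, was at 3.23, 1.39 and 3.01 CPM at P0, 7.95, 11.8 and 12.7 at P7, 12.2, 10.2 and 13.8 at P14, 9.26, 13.4 and 9.01 at P21, and 11.6, 6.11 and 16.6 at P28. Its rise (log2 fold change 2.27, SE 0.36, adjusted p = 2.14e-05) was complete by P7, where the log2 fold change against P0 was 2.21 (adjusted p = 0.000141). Robo4 (chromosome 9, 37401897 to 37415115, plus strand), the receptor of endothelial cells, is its neighbour on the other strand and was at 1.61, 3.44 and 3.99 CPM at P0, 6.92, 8.33 and 5.67 at P7, 9.56, 7.098 and 9.47 at P14, 4.32, 5.60 and 4.97 at P21, and 9.004, 8.26 and 7.55 at P28. The P28 libraries all exceeded the P0 libraries (log2 fold change 1.29, SE 0.24, adjusted p = 0.000114). The 6 endothelial markers summed to 83.2 to 93.2 CPM at P0 and 149 to 171 CPM at P28, 3 of the 6 rose and none fell, and their part in the rise of Robo4 was not tested. Robo2, which acts beside Robo1, had 127.9 ± 8.26 and 137.3 ± 2.75 CPM (log2 fold change 0.11, SE 0.10, adjusted p = 0.336), with a difference of −0.04 when library totals were used.

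Of the 4 netrins 2 rose and none fell. Ntn5, the least studied netrin, (chromosome 7, 45684022 to 45694556, plus strand) was at 0, 0.465 and 0.0815 CPM at P0, 0.769, 0.610 and 0 at P7, 2.27, 2.44 and 2.799 at P14, 6.41, 2.58 and 5.91 at P21, and 6.10, 3.64 and 7.32 at P28. One P0 and one P7 library held no read, the level rose after P7 (log2 fold change 4.52, SE 0.65, adjusted p = 5.54e-06 for P28 against P0), and the gene shares 23.4% of its exon bases with Sec1 on the opposite strand. Ntn4, a basement-membrane netrin, went from 6.61 ± 1.54 to 10.5 ± 0.755 CPM (log2 fold change 0.59, SE 0.20, adjusted p = 0.0138). The call on Ntn4 was lost without P28 replicate 3 (0.53 with adjusted p = 0.053) and with library totals (0.44 with adjusted p = 0.0671). Ntn1, the classical attractant, had 7.97 ± 2.24 and 8.76 ± 2.95 CPM (adjusted p = 0.808). Ntn3 had 18.9 ± 1.03 and 15.1 ± 3.39 CPM (log2 fold change −0.33, SE 0.16, adjusted p = 0.085), and was called lower with library totals (−0.48 with adjusted p = 0.0173) and without P28 replicate 2 (−0.52 with adjusted p = 0.013).

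Both attractant-type netrin receptors fell early. Dcc (chromosome 18, 71253634 to 72351069, minus strand), the receptor for netrin-1, was at 159, 177 and 162 CPM at P0, 74.1, 64.6 and 65.0 at P7, 42.5, 54.6 and 35.2 at P14, 24.01, 25.1 and 28.13 at P21, and 35.6, 36.7 and 43.4 at P28. Its libraries stepped down without overlap from P0 to P7, P14 and P21 (log2 fold change −2.10, SE 0.13, adjusted p = 2.34e-11 for P28 against P0), and the P28 libraries lay above those of P21. Neo1 (chromosome 9, 58874687 to 59036441, minus strand) was at 507, 511 and 529 CPM at P0, 323, 321 and 311 at P7, 160.1, 166 and 152 at P14, 169, 175 and 157 at P21, and 151, 157 and 165 at P28. It reached its P28 level by P14, with no overlap between P0, P7 and P14 (log2 fold change −1.71, SE 0.07, adjusted p = 2.04e-13 for P28 against P0).

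The UNC5 receptors, which turn netrin attraction into repulsion, moved the other way with 1 exception. Unc5a (chromosome 13, 54949411 to 55006018, plus strand) was at 59.7, 91.1 and 107.6 CPM at P0, 88.7, 89.9 and 110.7 at P7, 179, 127.1 and 203.7 at P14, 234, 295 and 237.6 at P21, and 212.1, 261 and 229.5 at P28. All P14 and later libraries exceeded those of P0 and P7 (log2 fold change 1.40, SE 0.19, adjusted p = 6.36e-06), and from P21 on its mean was the highest of the 39 genes per kilobase of exon, at 61.2 CPM per kilobase at P21 and 56.2 at P28. Unc5b (chromosome 10, 60762593 to 60831581, minus strand), also known from blood vessels, was at 4.43, 6.13 and 6.84 CPM at P0, 5.89, 5.90 and 5.01 at P7, 11.8, 8.87 and 12.3 at P14, 6.64, 12.3 and 13.4 at P21, and 14.8, 11.8 and 15.9 at P28. The P28 libraries lay above all P0 and P7 libraries (log2 fold change 1.21, SE 0.24, adjusted p = 0.000193). Unc5c, the gene mutated in the rostral cerebellar malformation mouse, went from 44.7 ± 5.79 to 58.9 ± 1.89 CPM (log2 fold change 0.43, SE 0.12, adjusted p = 0.00502). Unc5d, a receptor of migrating cortical neurons, fell from 65.5 ± 7.84 to 40.4 ± 7.15 CPM (log2 fold change −0.70, SE 0.14, adjusted p = 0.000187).

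The changes were spread over the first 3 weeks. Between P0 and P7, 5 of the 39 genes rose and 13 fell, where 21.0% of all genes rose and 17.8% fell (38.8% in either direction). The rises included Epha10 (1.83), Slit1 (0.79) and Robo4 (1.02), and the falls Efna4 (−1.81), Dcc (−1.30), Efnb1 (−0.87), Ephb4 (−0.87) and Efnb2 (−0.76), all as log2 fold changes. Epha4 and Ephb6 also fell over this week (−0.51 and −0.49), and the call on Ephb6 was lost without P0 replicate 3 (−0.26 with adjusted p = 0.135). Between P7 and P14, 8 rose and 16 fell, where 21.7% of all genes rose and 20.5% fell (42.2% in either direction). Ntn5 (2.89), Unc5b (1.02), Unc5a (0.82) and Epha6 (0.75) were among the rises. Epha8 (−1.90), Efna4 (−1.60), Neo1 (−0.998), Epha3 (−0.97) and Unc5d (−0.84) were among the falls.

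Between P14 and P21, 3 genes rose and 10 fell, where 9.93% of all genes rose and 10.6% fell (20.5% in either direction). Efna1 (1.16) and Epha10 (0.93) rose, while Dcc (−0.76), Epha6 (−0.57), Slit2 (−0.51), Unc5c (−0.50) and Epha5 (−0.42) fell. The count of rises was 6 without P14 replicate 3 (1324 of 14948 genes over all). The count of falls was 6 without P21 replicate 1 (1203 of 14946 over all). Between P21 and P28, 3 genes rose and none fell, where 4.49% of all genes rose and 3.34% fell (7.83% in either direction). They were Dcc (log2 fold change 0.60, SE 0.13, adjusted p = 0.00972), Ntn3 (log2 fold change 0.59, SE 0.16, adjusted p = 0.0334) and Unc5c (log2 fold change 0.51, SE 0.12, adjusted p = 0.0147). Dcc was lost without P21 replicate 1 (0.55 with adjusted p = 0.0526) or P28 replicate 3 (0.49 with adjusted p = 0.0686). Unc5c was lost without P21 replicate 1 (0.40 with adjusted p = 0.0859), P28 replicate 2 (0.48 with adjusted p = 0.052) or P28 replicate 3 (0.51 with adjusted p = 0.05). Ntn3 was lost without any single library of the 2 ages other than P28 replicate 1, with adjusted p from 0.0721 to 0.186, and with the replicate block (0.59 with adjusted p = 0.0535). None of the 39 was called without P21 replicate 1 (579 of 14946 genes over all) or without P28 replicate 3 (510 of 14949). With library totals in place of TMM factors, calls over all genes were 2604 higher and 3717 lower for P14 against P7 (3197 and 3016 with TMM), 1136 and 1875 for P21 against P14 (1463 and 1563), and 839 and 359 for P28 against P21 (662 and 492).

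**Figure D3:**
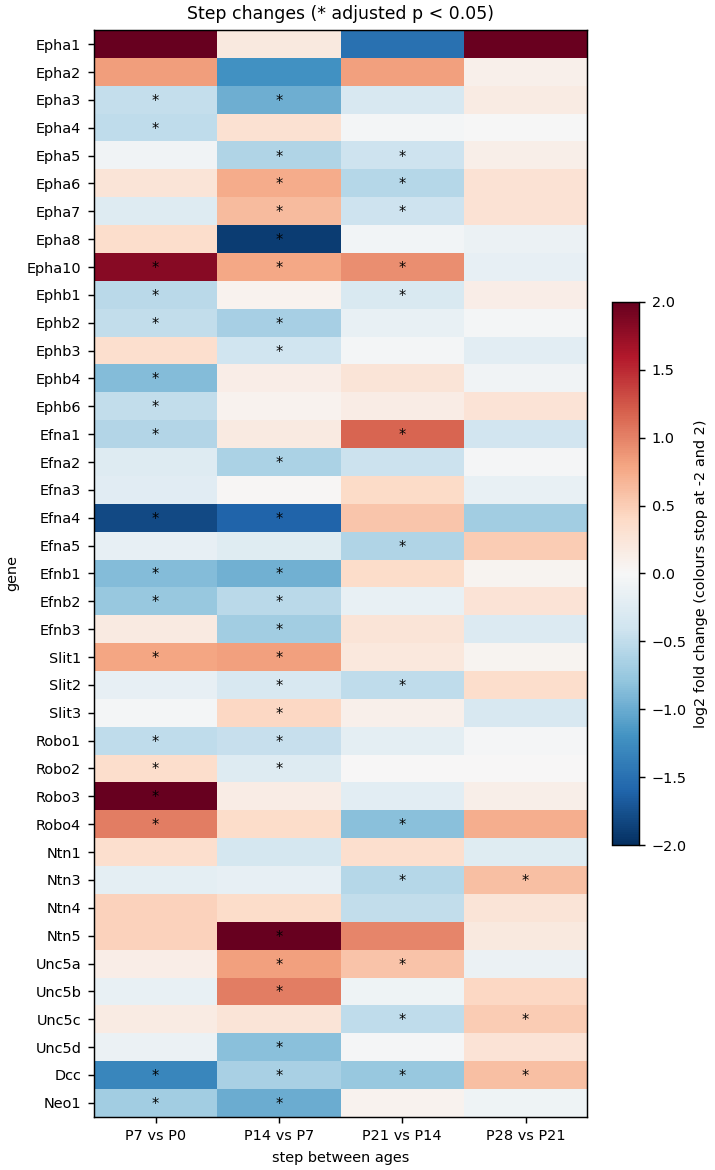
Log2 fold change of each guidance gene (rows) over each step between neighbouring ages (columns), from blue (lower in the later age) to red (higher), with colours ending at −2 and 2; a star marks an adjusted p under 0.05. Most stars stand in the columns of P7 against P0 and P14 against P7, and 3 stand in the column of P28 against P21.

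Known signalling partners of these receptors, listed with earlier results of these data known, changed in both directions. Of 24 partners of Ephs and ephrins, 8 rose and 10 fell between P0 and P28, where 32.9% of all genes rose and 31.3% fell. Chn1, the Rac inhibitor alpha-chimaerin that acts downstream of Epha4, rose from 244.1 ± 41.6 to 1587 ± 166 CPM (log2 fold change 2.71), and Ngef, the EphA-bound exchange factor ephexin, by 1.87. Vav2, an exchange factor used in Eph internalisation, dropped by 2.54 on the log2 scale, and Grip2, a scaffold that binds ephrin-B tails, dropped by 1.002. Of 15 partners of Slits and Robos 4 rose and 6 fell, with the largest rises in Pak1 (1.23) and the Robo3 ligand Nell2 (0.95) and the largest falls in the Robo-bound GTPase-activating protein Srgap1 (−1.60) and in Vasp (−1.39). Of 13 partners of netrin receptors 3 rose and 6 fell. Trim67, a ubiquitin ligase that binds Dcc, went from 409 ± 23.7 to 8.10 ± 1.72 CPM (log2 fold change −5.65), while its relative Trim9 rose by 0.80 on the log2 scale. Rgma, a ligand of neogenin, had a log2 fold change of −1.45 and Pitpna, a lipid transfer protein of netrin signalling, one of 0.44. The median log2 fold change was −0.15, 0.00 and −0.26 for the 3 lists in this order, beside 0.00 over all genes.

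The single neurons show which cell types held reads of these genes in weeks 3 to 4. No animal is named behind a cell, so each type is 1 sample and no difference between types was tested. Values pool the reads of all cells of 1 type, and the intervals given cover counting error only. A gene was counted as past the fold where 2 types differed at least 4-fold with at least 5 CPM in the higher one. A type without a read was set to 3 reads, which equals 0.0452 CPM in CCK, 0.0984 in PV, 0.0951 in CA1 pyramidal, 0.137 in burst and 0.182 in regular cells. A fold against such a type, written as at least, is a lower bound for the counting of pooled reads only. It does not cover the spread between cells, also where few cells held the reads of the higher type. A type with 1 to 3 reads was used at its measured level, and its fold is then a ratio with a wide counting interval and no bound. Where 5 values follow each other they are for CCK, PV, CA1 pyramidal, burst and regular cells in this order, shares are of cells with a read after thinning each cell to 200000 reads, and equal-weight means give each cell the same weight.

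More guidance genes were detected per subiculum cell than per CA1 cell. In thinned cells a median of 9 of the 39 genes was detected in CCK, 6 in PV, 6 in CA1 pyramidal, 22 in burst and 19 in regular cells, and the median number of all genes detected was 5381, 4519, 2572, 8961 and 8926. No read was found for 8, 11, 11, 0 and 2 of the 39. A single cell held over 50% of a gene's reads for 17, 16, 17, 10 and 14 genes. Among markers of the labelled types, Gad1 had 1933 and 2863 CPM in CCK and PV cells and 8.75 CPM in CA1 pyramidal cells, and Slc17a7 had 379 CPM in CA1 pyramidal, 1361 in burst and 1715 in regular cells. The 4 glutamatergic markers summed to 90.5, 281, 1676, 2023 and 2743 CPM over the 5 types. The 3 markers of CCK interneurons summed to 6791, 2011, 482, 821 and 836 CPM, and the 3 of PV interneurons to 190, 625, 16.9, 59.4 and 70.2 CPM. Subiculum cells also held Gad1, at 28.5 CPM in burst and 33.5 CPM in regular cells, with a read in 61.8% of thinned cells, and the 3 GABAergic markers summed to 9.35 CPM in CA1 pyramidal, 52.4 in burst and 84.9 in regular cells. Pvalb was at 338 CPM in PV cells with a read in 61.5% of them, and in 79.4% of subiculum cells, at 31.6 CPM. The 8 myelin markers summed to 140, 349, 818, 4340 and 1865 CPM, and the 6 microglia markers to 2051, 469, 1512, 183 and 210 CPM. The 5 choroid plexus markers summed to 0.0603, 0, 15.0 and then 361 and 173 CPM in the same order. Region also goes with the kit version, so CA1 and subiculum cannot be told apart from version 3 and version 4, and the part of these marker reads in the values below was not tested.

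**Figure D4:**
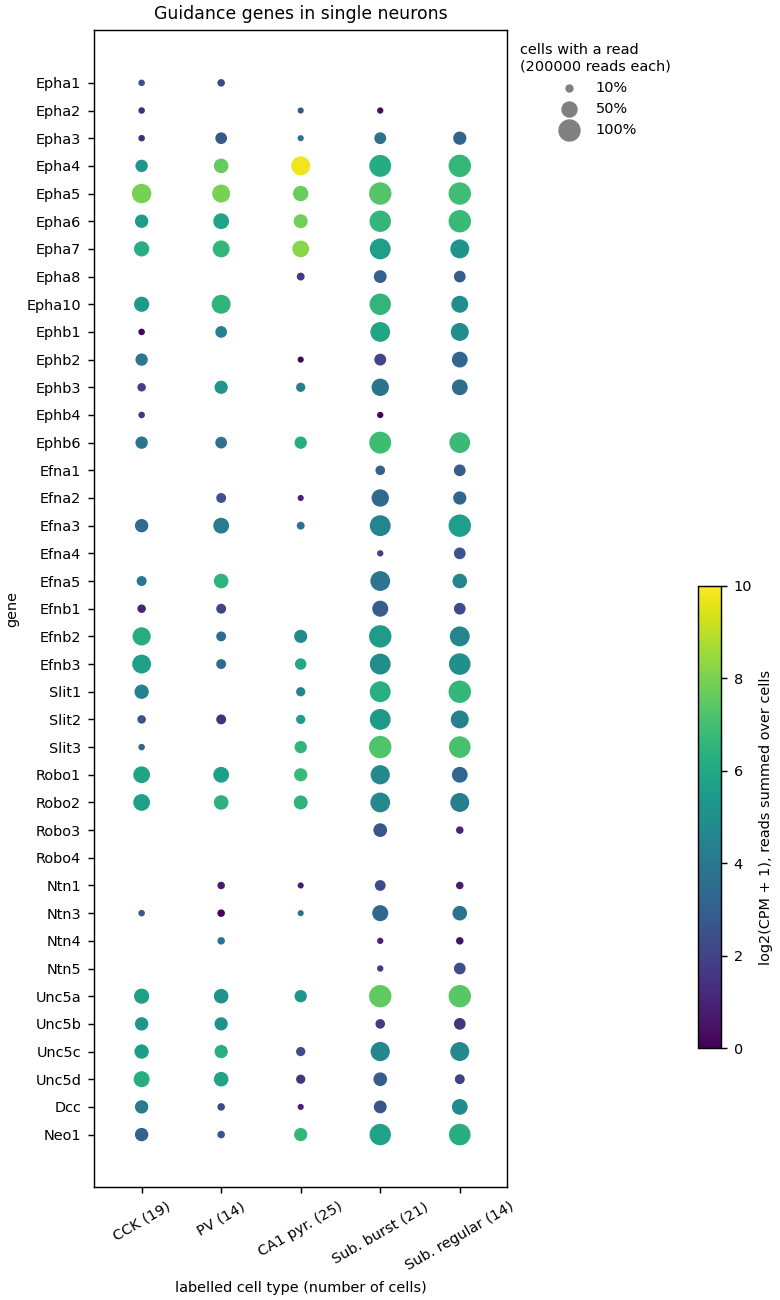
Guidance genes (rows) in the 5 labelled cell types (columns). Colour gives log2(CPM + 1) from the pooled reads of all cells of 1 type and dot size the share of cells with a read after thinning to 200000 reads per cell; no dot means no thinned cell with a read. The Epha4 row is brightest in the CA1 pyramidal column at 891 CPM, and most rows have larger dots in the 2 subiculum columns.

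Between PV and CCK cells 13 of 26 guidance genes with at least 5 CPM were past the fold (26.5% of all genes), 6 higher in PV (10.5% of all) and 7 in CCK (16.1% of all). With equal weight per cell 2 were higher in PV and 9 in CCK (3642 of 11316 genes past the fold over all). In thinned cells 2 and 8 were (3594 of 11350 over all). At these 2 settings the counts over all genes are for either direction, and shares by direction were not computed. Between CCK and CA1 pyramidal cells 16 of 26 were (37.0% of all), 7 higher in CCK (23.7%) and 9 in CA1 pyramidal cells (13.4%). With equal weight 10 were higher in CCK and 7 in CA1 pyramidal cells (4231 of 11454 over all). In thinned cells 9 and 6 were (4251 of 11490 over all), so that the larger count of members lay on the other side. Between PV and CA1 pyramidal cells 17 of 26 were past the fold (40.9% of all), 7 higher in PV (23.2%) and 10 in CA1 pyramidal cells (17.7%). The counts were 6 and 8 with equal weight (4690 of 11013 over all) and 6 and 11 in thinned cells (4762 of 11103). Between CA1 and all subiculum pyramidal cells 15 of 29 were (37.8% of all), 5 higher in CA1 (11.9%) and 10 in the subiculum (25.9%). Here the counts were 3 and 8 with equal weight (4418 of 11767 over all) and 4 and 8 in thinned cells (4446 of 11800). Burst and regular subiculum cells differed past the fold in 2 of 31 (5.23% of all), with Robo3 higher in burst cells (2.05%) and Dcc in regular cells (3.19%). In thinned cells none was higher in burst cells and 2 were higher in regular cells (783 of 11760 over all). Per kilobase of exon, the highest levels were those of Efnb3, Epha5 and Unc5a in CCK cells, of Epha4, Efna5 and Epha5 in PV cells, of Epha4, Epha6 and Epha7 in CA1 pyramidal cells, and of Unc5a, Ephb6 and Slit3 in both burst and regular cells.

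Among EphA receptors Epha4 stood out in CA1 pyramidal cells. It had 35.7, 193, 891, 69.3 and 101.4 CPM, with equal-weight means of 70.2, 81.997, 627, 71.9 and 131.2 CPM and shares of 26.3%, 38.5%, 69.6%, 95.2% and 100%. The CA1 pyramidal level was 24.99-fold (counting interval 23.97 to 26.1) above CCK, 4.61-fold (counting interval 4.49 to 4.75) above PV and 10.7-fold (counting interval 10.3 to 11.1) above the subiculum cells together, while more of the subiculum cells held a read. Single CA1 pyramidal cells ranged from 0 to 4719 CPM with a median of 298 CPM, so that some of them had none. The PV level was 5.42-fold (counting interval 5.16 to 5.68) above CCK from summed reads but 1.17-fold above it with equal weight per cell.

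Epha7 had 73.3, 95.9, 296, 45.9 and 34.8 CPM, with equal-weight means of 61.6, 79.0, 446, 50.7 and 44.0 CPM and shares of 42.1%, 53.8%, 52.2%, 85.7% and 69.2%. In CA1 pyramidal cells it was 4.04-fold (counting interval 3.91 to 4.19) higher than in CCK cells and 7.21-fold (counting interval 6.83 to 7.61) higher than in subiculum cells. Yet the median CA1 pyramidal cell had 0 CPM of Epha7 and the highest 6416 CPM, while the median subiculum cell had 35.7 CPM. Epha6 had 45.2, 55.5, 228.995, 95.5 and 104.9 CPM, with equal-weight means of 59.5, 35.2, 206, 88.96 and 117.2 CPM and shares of 31.6%, 46.2%, 34.8%, 90.5% and 100%. It too was highest in CA1 pyramidal cells, 5.07-fold (counting interval 4.85 to 5.29) above CCK and 4.13-fold (counting interval 3.91 to 4.35) above PV, with equal-weight ratios of 3.46 and 5.85, and 65.4% of its reads there came from 1 cell. Epha5 was past the fold in no comparison, with 245.6, 244.9, 209.3, 158 and 120.2 CPM.

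Epha10 was lowest in CA1 pyramidal cells. It had 41.1, 90.7, 0.317, 91.4 and 28.6 CPM, with equal-weight means of 46.7, 139, 0.172, 99.1 and 27.7 CPM and shares of 42.1%, 69.2%, 0%, 90.5% and 53.8%. All 10 reads in CA1 pyramidal cells came from 1 cell, against which the levels were 129.8-fold (counting interval 70.5 to 271) higher in CCK, 286-fold (counting interval 155 to 597) higher in PV and 203.001-fold (counting interval 110.2 to 424) higher in subiculum cells. The tissue rise of Epha10 ran from 6.01 to 56.7 CPM between P0 and P28.

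Epha3 and Epha2 were found in few cells. Epha3 had 1.36, 5.51, 12.3, 12.4 and 8.41 CPM, with equal-weight means of 0.551, 2.82, 10.02, 15.6 and 11.7 CPM and shares of 5.26%, 23.1%, 4.35%, 23.8% and 30.8%. It was 4.06-fold (counting interval 3.12 to 5.30) higher in PV than in CCK cells, and 2.79-fold without the deepest cell of each type. It was 9.09-fold (counting interval 7.21 to 11.6) higher in CA1 pyramidal than in CCK cells, from reads of 1 CA1 cell. Epha2 had 1.52, 0, 5.39, 0.275 and 0 CPM, with equal-weight means of 1.81, 0, 4.38, 0.673 and 0 CPM and shares of 5.26%, 0%, 4.35%, 4.76% and 0%. All CA1 pyramidal reads of Epha2 came from 1 cell, which put CA1 at least 54.8-fold above PV and 34.4-fold (counting interval 15.5 to 95.1) above subiculum cells. Epha8 had 0, 0, 2.25, 6.92 and 6.24 CPM and Epha1 4.33, 3.61, 0, 0.0458 and 0.242 CPM, and neither was past the fold anywhere.

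Ephb1 had no read in CA1 pyramidal cells. It had 0.0754, 19.7, 0, 58.0 and 28.27 CPM, with equal-weight means of 0.234, 14.8, 0, 54.7 and 31.7 CPM and shares of 5.26%, 23.1%, 0%, 76.2% and 61.5%. Subiculum cells were at least 475-fold and PV cells at least 207.2-fold above CA1 pyramidal cells, and PV cells 261-fold (counting interval 111.4 to 808) above CCK cells. A single PV cell held 74.7% of the PV reads of Ephb1, and 1 CCK cell held all 5 CCK reads. Ephb3 had 2.74, 36.3, 18.4, 13.1 and 10.2 CPM, with equal-weight means of 3.54, 37.4, 17.6, 16.001 and 10.2 CPM and shares of 10.5%, 30.8%, 13.04%, 57.1% and 46.2%. It was lowest in CCK cells, 13.2-fold (counting interval 11.3 to 15.6) higher in PV and 6.72-fold (counting interval 5.68 to 7.98) higher in CA1 pyramidal cells. The highest PV cell stood at 447 CPM of Ephb3 and the next at 51.7 CPM.

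Ephb2 had 14.6, 0, 0.0317, 3.07 and 8.78 CPM, with equal-weight means of 7.39, 0, 0.0136, 2.08 and 7.79 CPM and shares of 26.3%, 0%, 4.35%, 23.8% and 46.2%. PV cells held no read of Ephb2 and CA1 pyramidal cells 1 read, so CCK cells stood at least 148-fold above PV and 459.5-fold (counting interval 82.3 to 18169.6) above CA1 pyramidal cells, and subiculum cells 174-fold (counting interval 31.0 to 6922) above the latter. Ephb6 had 13.3, 11.97, 74.2, 113.99 and 109.99 CPM, with equal-weight means of 19.8, 6.97, 94.8, 102.7 and 99.4 CPM and shares of 26.3%, 23.1%, 26.1%, 95.2% and 84.6%. Both interneuron types were below CA1 pyramidal cells, by 5.59-fold (counting interval 5.17 to 6.05) for CCK and 6.20-fold (counting interval 5.55 to 6.95) for PV. Ephb4 was at 2.07 CPM in CCK cells and at most 0.138 CPM elsewhere.

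Among the ephrins, Efna5 was highest in PV cells and had no read in CA1 pyramidal cells. It had 14.01, 86.2, 0, 13.9 and 22.6 CPM, with equal-weight means of 15.7, 48.7, 0, 13.4 and 22.4 CPM and shares of 15.8%, 38.5%, 0%, 76.2% and 38.5%. Against CA1 pyramidal cells it was at least 147-fold higher in CCK, at least 906-fold in PV and at least 186-fold in subiculum cells. A single cell held 54.8% of the CCK reads, and another 48.3% of the PV reads. PV cells were 6.15-fold (counting interval 5.70 to 6.63) above CCK cells from summed reads and 3.10-fold with equal weight.

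Efnb2 had 73.3, 10.5, 26.9, 43.3 and 22.6 CPM, with equal-weight means of 97.7, 5.49, 16.7, 47.2 and 29.6 CPM and shares of 63.2%, 15.4%, 30.4%, 100% and 76.9%. CCK cells were 7.005-fold (counting interval 6.25 to 7.87) above PV cells, and 1 cell held 67.9% of the CCK reads. Efnb3 had 48.1, 9.80, 62.2, 28.004 and 30.9 CPM, with equal-weight means of 75.1, 11.9, 40.0, 29.6 and 26.2 CPM and shares of 68.4%, 15.4%, 21.7%, 85.7% and 92.3%. PV cells were lowest, 4.91-fold (counting interval 4.36 to 5.54) below CCK and 6.34-fold (counting interval 5.61 to 7.19) below CA1 pyramidal cells, where the equal-weight ratio to PV was 3.35.

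Efna1, Efna2 and Efnb1 were higher in subiculum than in CA1 pyramidal cells. Efna1 had 0, 0, 0, 7.104 and 6.36 CPM, with equal-weight means of 0, 0, 0, 13.2 and 10.1 CPM and shares of 0%, 0%, 0%, 14.29% and 23.1%, and was at least 71.3-fold higher in subiculum than in CA1 pyramidal cells. Efna2 had 0, 4.92, 0.983, 9.40 and 8.78 CPM, with equal-weight means of 0, 2.24, 0.907, 11.7 and 5.85 CPM and shares of 0%, 15.4%, 4.35%, 57.1% and 30.8%, and was 9.29-fold (counting interval 6.43 to 13.9) higher in subiculum cells. Efnb1 had 0.995, 3.02, 0, 6.42 and 3.75 CPM, with equal-weight means of 1.44, 1.27, 0, 5.45 and 3.37 CPM and shares of 10.5%, 15.4%, 0%, 47.6% and 23.1%, and was at least 55.4-fold higher in subiculum cells. Efna3, at 10.2, 16.7, 12.05, 22.5 and 46.7 CPM, was past the fold in no comparison, nor was Efna4, which had reads in subiculum cells only, at 2.61 CPM in burst and 5.02 CPM in regular cells.

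**Figure D5:**
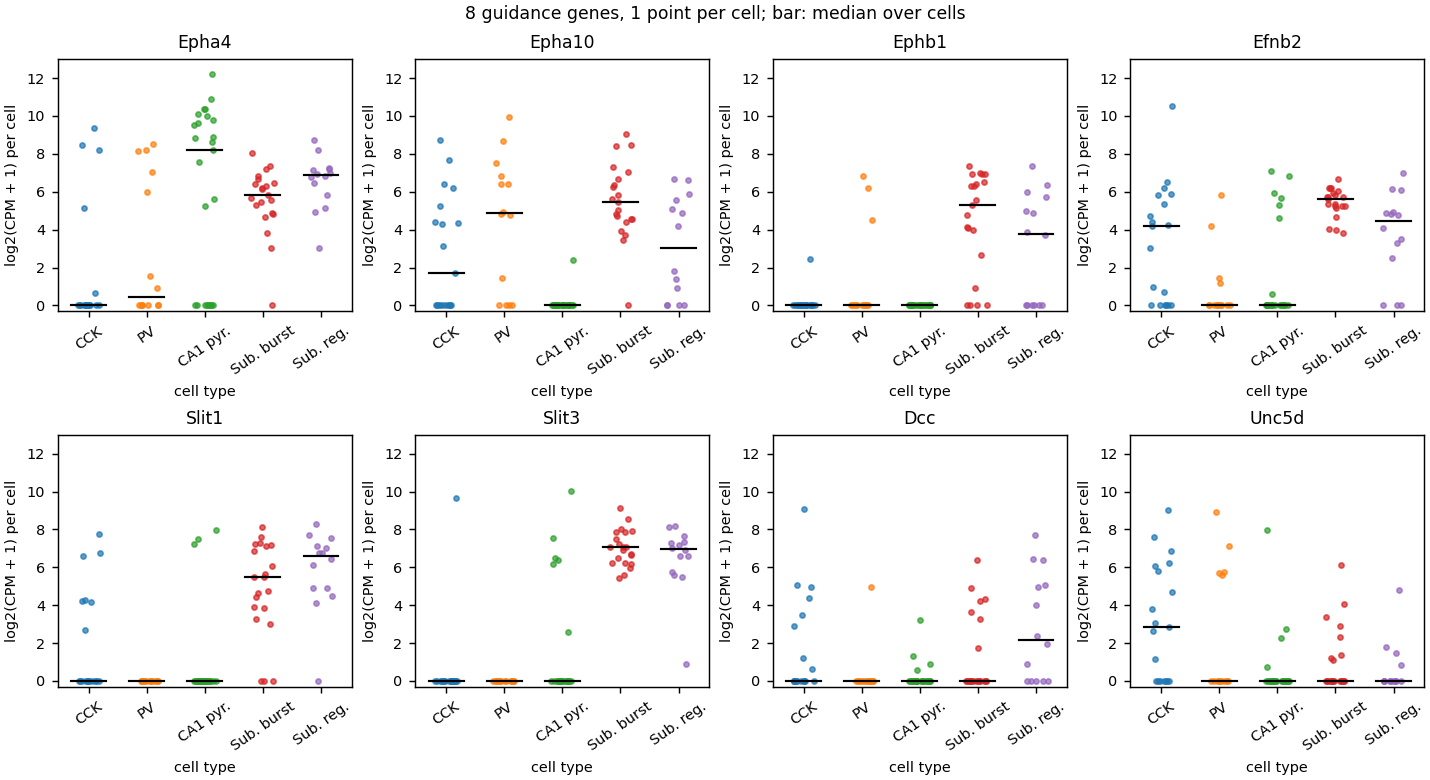
Level of 8 guidance genes in single cells as log2(CPM + 1), with 1 point per cell, 5 labelled types along the horizontal axis and a bar at the median. Epha4 is high in many CA1 pyramidal cells and 0 in others, Epha10 and Ephb1 have almost no read in CA1 pyramidal cells, and Slit3 is above 0 in all subiculum cells.

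Slits were nearly absent from PV cells. Slit3 had 9.26, 0, 92.9, 149 and 134.9 CPM, with equal-weight means of 41.7, 0, 59.1, 162 and 129.2 CPM and shares of 5.26%, 0%, 26.1%, 100% and 92.3%. CA1 pyramidal cells were at least 945-fold above PV and 10.03-fold (counting interval 9.20 to 10.96) above CCK cells, but with equal weight CCK and CA1 pyramidal cells had 41.7 and 59.1 CPM, where 1 cell held all CCK reads and 1 cell 69.6% of the CA1 pyramidal ones. CCK cells were at least 94.1-fold above PV. Slit1 had 20.7, 0, 21.27, 75.2 and 96.3 CPM, with equal-weight means of 25.04, 0, 23.4, 71.1 and 101.9 CPM and shares of 36.8%, 0%, 13.04%, 85.7% and 100%. PV cells had no read of it, and CCK and CA1 pyramidal cells were at least 210.8-fold and at least 216.3-fold above them. Slit2 had 4.74, 1.64, 48.1, 41.1 and 19.3 CPM, with equal-weight means of 6.39, 1.21, 31.2, 42.7 and 21.03 CPM and shares of 10.5%, 15.4%, 13.04%, 85.7% and 61.5%. CA1 pyramidal cells were 10.2-fold (counting interval 8.99 to 11.5) above CCK and 29.4-fold (counting interval 22.2 to 39.7) above PV, with 99.8% of the CA1 pyramidal reads in 1 cell.

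Robo1 and Robo2 were the Robo receptors with reads in all types. Robo1 had 54.6, 46.7, 105.1, 25.1 and 8.96 CPM, with equal-weight means of 47.7, 30.6, 82.3, 23.5 and 8.53 CPM and shares of 52.6%, 46.2%, 30.4%, 71.4% and 46.2%. It was 5.79-fold (counting interval 5.34 to 6.30) higher in CA1 pyramidal than in subiculum cells, while more of the subiculum cells held a read. The highest CA1 pyramidal cell stood at 979 CPM of Robo1. Robo2 had 48.8, 84.6, 87.3, 25.2 and 17.3 CPM, with equal-weight means of 74.3, 39.0, 60.9, 24.2 and 20.9 CPM and shares of 52.6%, 38.5%, 34.8%, 76.2% and 69.2%. It was 4.01-fold (counting interval 3.71 to 4.34) higher in CA1 pyramidal than in subiculum cells from summed reads and 2.66-fold with equal weight. Robo3 had 0.0151, 0, 0, 5.13 and 1.03 CPM, with equal-weight means of 0.0179, 0, 0, 5.01 and 0.562 CPM and shares of 0%, 0%, 0%, 33.3% and 7.69%. Burst cells were 4.99-fold (counting interval 2.98 to 8.87) above regular cells, in which 1 cell held all reads of Robo3. In thinned cells the ratio was 3.92, with 4.52 CPM in burst cells, and Robo3 was no longer past the fold. Robo4 had no read in CCK, PV, CA1 pyramidal or regular cells and 0.183 CPM in burst cells, and the 6 endothelial markers summed to 2.22, 0, 0, 2.20 and 5.93 CPM.

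Of the netrins, Ntn3 and Ntn4 were past the fold. Ntn3 had 6.18, 0.0328, 11.5, 8.94 and 13.02 CPM, with equal-weight means of 22.5, 0.226, 4.96, 11.4 and 10.01 CPM and shares of 5.26%, 7.69%, 4.35%, 47.6% and 38.5%. PV cells had 1 read, against which CCK and CA1 pyramidal cells were 189-fold (counting interval 33.7 to 7467) and 352-fold (counting interval 62.8 to 13939) higher, with 90.2% and 100% of their reads in 1 cell each. Ntn4 had 0, 12.9, 0, 0.963 and 0.424 CPM, with equal-weight means of 0, 3.68, 0, 1.60 and 0.395 CPM and shares of 0%, 7.69%, 0%, 4.76% and 7.69%. It was at least 286-fold higher in PV than in CCK cells and at least 135.8-fold higher than in CA1 pyramidal cells, all from 1 PV cell. Without the deepest cell of each type no PV read of Ntn4 remained. Ntn1 had 0, 0.688, 0.761, 3.76 and 0.726 CPM, and Ntn5 had reads in subiculum cells only, at 2.20 CPM in burst and 4.12 CPM in regular cells.

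Of the UNC5 receptors, Unc5b, Unc5c and Unc5d had their lowest summed level in CA1 pyramidal cells. Unc5d had 76.6, 54.5, 1.81, 6.55 and 2.85 CPM, with equal-weight means of 57.1, 55.3, 10.3, 5.21 and 2.30 CPM and shares of 47.4%, 38.5%, 13.04%, 33.3% and 15.4%. CCK cells were 42.4-fold (counting interval 32.7 to 56.0) and PV cells 30.1-fold (counting interval 23.1 to 40.0) above CA1 pyramidal cells. Unc5b had 37.1, 32.7, 0.0317, 2.29 and 1.88 CPM, with equal-weight means of 17.9, 19.5, 0.115, 2.48 and 3.67 CPM and shares of 31.6%, 30.8%, 0%, 14.29% and 23.1%. CA1 pyramidal cells had 1 read, and CCK and PV cells were 1171-fold (counting interval 210.02 to 46279) and 1032-fold (counting interval 185 to 40809) above them, with 80.1% of the CCK reads in 1 cell. Unc5c had 44.8, 77.4, 4.09, 22.8 and 25.001 CPM, with equal-weight means of 56.1, 50.1, 2.85, 36.3 and 27.8 CPM and shares of 36.8%, 30.8%, 13.04%, 71.4% and 69.2%. It was 10.96-fold (counting interval 9.19 to 13.2) higher in CCK, 18.9-fold (counting interval 15.9 to 22.8) in PV and 5.81-fold (counting interval 4.83 to 7.04) in subiculum cells than in CA1 pyramidal cells. The highest single cells for Unc5c stood at 662 CPM in CCK and 563 CPM in PV, far above the equal-weight means of these types. Unc5a had 50.8, 33.2, 36.0, 187 and 170.4 CPM, with equal-weight means of 42.1, 70.0, 40.5, 181 and 164 CPM and shares of 42.1%, 38.5%, 26.1%, 100% and 100%. Every thinned subiculum cell had a read of it, and subiculum cells were 4.9996-fold (counting interval 4.69 to 5.33) above CA1 pyramidal cells.

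Dcc and Neo1 differed in where they were found. Neo1 had 7.46, 5.44, 96.7, 53.7 and 73.3 CPM, with equal-weight means of 6.92, 3.45, 75.1, 47.2 and 81.8 CPM and shares of 31.6%, 7.69%, 30.4%, 90.5% and 92.3%. CA1 pyramidal cells were 12.96-fold (counting interval 11.8 to 14.28) above CCK and 17.8-fold (counting interval 15.2 to 20.9) above PV cells. Dcc had 17.03, 3.34, 0.951, 5.13 and 25.9 CPM, with equal-weight means of 34.1, 2.14, 0.443, 8.08 and 32.9 CPM and shares of 31.6%, 7.69%, 4.35%, 28.6% and 46.2%. CCK cells were 5.09-fold (counting interval 4.15 to 6.30) above PV and 17.9-fold (counting interval 12.5 to 26.7) above CA1 pyramidal cells, with 73.1% of the CCK reads in 1 cell. Subiculum cells were 14.8-fold (counting interval 10.3 to 22.2) above CA1 pyramidal cells, and within the subiculum regular cells were 5.05-fold (counting interval 4.09 to 6.27) above burst cells.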

How the data were processed

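The deposited table gives raw counts for each gene symbol in 15 tissue libraries and 93 single cells, with no scaling by the authors. Per the submitters' processing notes, the tools included STAR and HTSeq besides FastQC, cutadapt and Trim Galore; hg19 and mm10 are both listed as builds, and no versions are stated. Of its rows 23337 are genes and 92 are ERCC spike-ins, which were not used; 0 columns lacked a sample. Coordinates come from a GENCODE annotation of GRCm38. In tissue, edgeR 4.0.16 (R 4.3.3) kept 14737 of the 19485 genes that had a read (filterByExpr), scaled libraries by TMM and fitted a robust quasi-likelihood model over all 15 libraries with a term for each age (biological coefficient of variation 0.119). A call needed an adjusted p (Benjamini-Hochberg, all genes tested) under 0.05, and the SE given is |log2 fold change|/√F. The script was tested on simulated data with known changes. Replicates are labelled independent but no animal or litter is named, so p values measure only the spread between these samples. In cells, reads were summed by type, and 95% intervals are exact (Poisson, or Clopper-Pearson for ratios). Depth per library is given with the results. Python 3.11.15 ran the cell summaries with scipy 1.17.1.

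Members, partner lists and marker lists were chosen with earlier results of these data known. All 15 values are given for members that were called between P28 and P0, changed by at least 1 on the log2 scale and reached 5 CPM in the higher of both ages, and for the 6 members highest per kilobase. Cell values are given for members past a 4-fold difference with 5 CPM, and partners are the 2 strongest called changes each way. Of 14 netrin-receptor partners, 13 had a row. Tissue results were recomputed with RLE scaling, with DESeq2 1.42.0, unfiltered, with replicate number as a block, from 6 libraries only and with single libraries left out; library totals without TMM were added after seeing the data. Cell results were recomputed with equal weight, thinned cells, no deepest cell and a 2-fold limit.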

Additional observations from a re-analysis of the deposited data

How the results depend on the processing

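The counts of members called higher and lower between P28 and P0 (12 and 17) ranged from 10 to 12 and from 16 to 18 when each library was left out in turn. The same ranges were 4 to 6 and 10 to 13 for P7 against P0, 7 to 9 and 12 to 15 for P14 against P7, 2 to 6 and 6 to 10 for P21 against P14, and 0 to 3 and 0 to 0 for P28 against P21, and 33 to 36 members differed among ages. Over all genes (14946 to 15025 tested), the ranges were 4401 to 4714 and 4271 to 4494 for P28 against P0. They were 2384 to 2884 and 2003 to 2436 for P7 against P0, and 2713 to 3208 and 2499 to 2965 for P14 against P7. For P21 against P14 they were 867 to 1324 and 991 to 1455, and for P28 against P21 301 to 527 and 179 to 342. Among ages, 10556 to 11411 of all genes differed. With the 6 libraries of P21 and P28 alone, 5 members were higher at P28 (734 of 14259 genes over all) in place of 3 (662 of 14737). Members past a 2-fold limit between burst and regular cells were 9 (1999 of 11538 genes over all), against 2 at 4-fold (604 of 11538). 4 uncalled differences between P28 and P0 turned negative with library totals without TMM, Efna3 (−0.12), Ephb6 (−0.14), Ntn1 (−0.075) and Robo2 (−0.038), which shifted the median of all genes by −0.15. On leaving out single libraries Efna3 lay between −0.10 and 0.12, Ephb6 between −0.16 and 0.25 and Ntn1 between −0.25 and 0.33. Partner counts ranged from 8 to 8 and 10 to 11 for Eph and ephrin, 3 to 4 and 6 to 6 for Slit and Robo, and 3 to 3 and 6 to 7 for netrin-receptor partners. The cause of these shifts was not tested. Low counts limit Epha1, Epha2 and Ntn5 in tissue. In CA1 cells 1 cell often held most reads of a gene.

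With the replicate number as a block, 11 members were higher and 17 lower for P28 against P0, 5 and 13 for P7 against P0, 8 and 14 for P14 against P7, 3 and 9 for P21 against P14, and 2 and 0 for P28 against P21. Over all 14737 genes these counts were 4797 and 4554, 2966 and 2515, 3140 and 2930, 1362 and 1458, and 551 and 389. No pairing by number was seen. Deviations of libraries with the same number correlated at −0.30 to 0.21 (over 0.1 in 6 of 30 pairs). Those with different numbers correlated at −0.32 to 0.33 (over 0.1 in 17 of 60 pairs), and 3 of 15 libraries correlated best with their own number. With 3 libraries per age, these correlations cannot show whether a number marks a shared litter or day.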
